A study of Mus musculus with 6 samples.

Results

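The genes described here encode apelin and its receptor (Apln, Aplnr), the angiopoietins Angpt1 and Angpt2, the endothelial receptor tyrosine kinases Tek and Tie1, and the oxygen-regulated transcription factor subunits Hif1a and Epas1. They were taken by symbol, and all 8 were found among the 46095 gene symbols of the count table. RNA sequencing had been done on 6 mouse hearts. In 3 of them, labelled STAT3cKO, Stat3 had been removed from cardiomyocytes only, and the other 3 were labelled wild type. The question was which pathways bearing on heart function differ between them. The labels give no Cre driver, strain, age, sex, treatment or pooling, and no statement that each library is a separate animal. The p-values here therefore set group differences only against the spread of these libraries, and that spread may be technical. Hearts are named here by the numbers in their titles (wild type 1, 3 and 4, and STAT3cKO 3, 6 and 91).

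Apelin is a secreted peptide that activates Aplnr, a G protein-coupled receptor of endothelial cells and cardiomyocytes, and is known in the heart for supporting contraction and vessel growth. Angpt1, released by mural and other non-endothelial cells, activates Tek on endothelium and stabilises vessels. Angpt2, stored by endothelial cells themselves, can oppose Angpt1, and Tie1 is a partner of Tek without a firmly established ligand of its own. Hif1a and Epas1 are hydroxylated and destroyed when oxygen is plentiful and pair with Arnt to switch on hypoxia genes when it is not. Their activity is set largely at the level of the protein, which RNA counts do not measure.

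Apln, Angpt1, Tek, Tie1 and Epas1 were lower in STAT3cKO hearts than in wild-type hearts, and none of the 8 genes was called higher. The largest of these decreases were those of the ligands Apln, to 37.4% of the wild-type mean, and Angpt1, to 44.8%. Tek stood at 70.8%, Tie1 at 79.3% and Epas1 at 78.0%. Aplnr, at 50.6%, Angpt2, at 84.1%, and Hif1a, at 121.6%, did not pass the test.

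A gene is described as lower or higher when its adjusted p is under 0.05 in edgeR's quasi-likelihood test, with Benjamini-Hochberg adjustment over 14484 genes. All 8 genes passed the low-count filter, and 5 fell, 0 rose and 3 were not called (unadjusted p under 0.05 in edgeR: 6 lower and 1 higher; DESeq2 and limma-voom each called 6 lower and 0 higher). Over all genes tested, 12.6% were lower, 13.2% higher and 25.8% either. Among the 4958 tested genes whose longest transcript is within the 8 genes' own range, 3149 to 5516 nt, 14.0% were lower, 8.79% higher and 22.8% either. The median log2 fold change, always STAT3cKO minus wild type, was -0.43 for the 8 genes and -0.0016 for all genes. Scaling by library size alone moved the median of all genes to -0.11 and the calls to 1109 higher and 2714 lower, from 1918 and 1820. CPM values of the groups were apart for 6 of the 8 genes, against 43.0% of all genes tested (21.5% with STAT3cKO below).

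**Figure D1:**
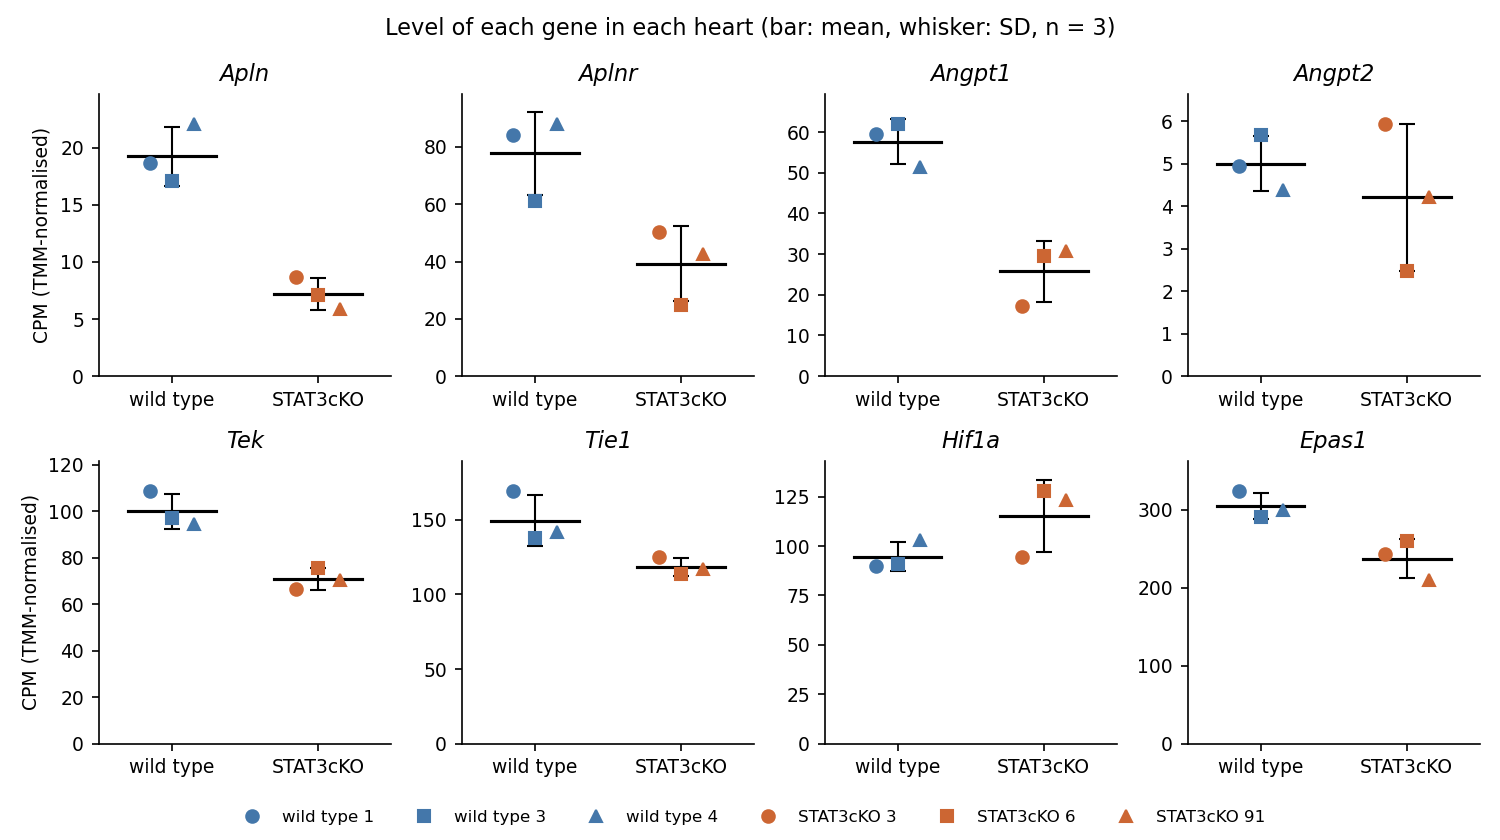
CPM (read counts scaled to library size with TMM factors, vertical axis from 0) of each gene in each heart, with the mean (bar) and SD (whisker) of the 3 hearts of a group. The groups are apart for Apln, Aplnr, Angpt1, Tek, Tie1 and Epas1 and overlap for Angpt2 and Hif1a.

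Total counts ran from 15416877 to 18264052 per heart. Stat3 itself, the deleted gene, was at 99.7, 85.8 and 97.5 CPM in wild type 1, 3 and 4 and at 52.9, 63.7 and 59.6 CPM in STAT3cKO 3, 6 and 91. Its log2 fold change was -0.68 ± 0.10 (SE, edgeR adjusted p = 0.000677). Whole-heart RNA can also hold Stat3 transcripts from cells that were not targeted, and the source of the remaining Stat3 counts was not tested. Exons of Stat3 share 72 bases with Stat5a on the opposite strand. Markers of cardiomyocytes, the cells that define heart tissue, were present in every heart and summed to between 63560 and 88445 CPM. Fold changes in these libraries also followed transcript length, with a median of -0.08 for genes in the length range of the 8, so each gene is given with a second fit in which a trend on transcript length and GC content was removed from each heart (the length-adjusted fit). In it, 7.75% of all genes were lower, 10.8% higher and 18.6% either. Of the 8 genes, Apln, Angpt1 and Tek were then lower, Hif1a was higher, and 4 were not called.

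**Figure D2:**
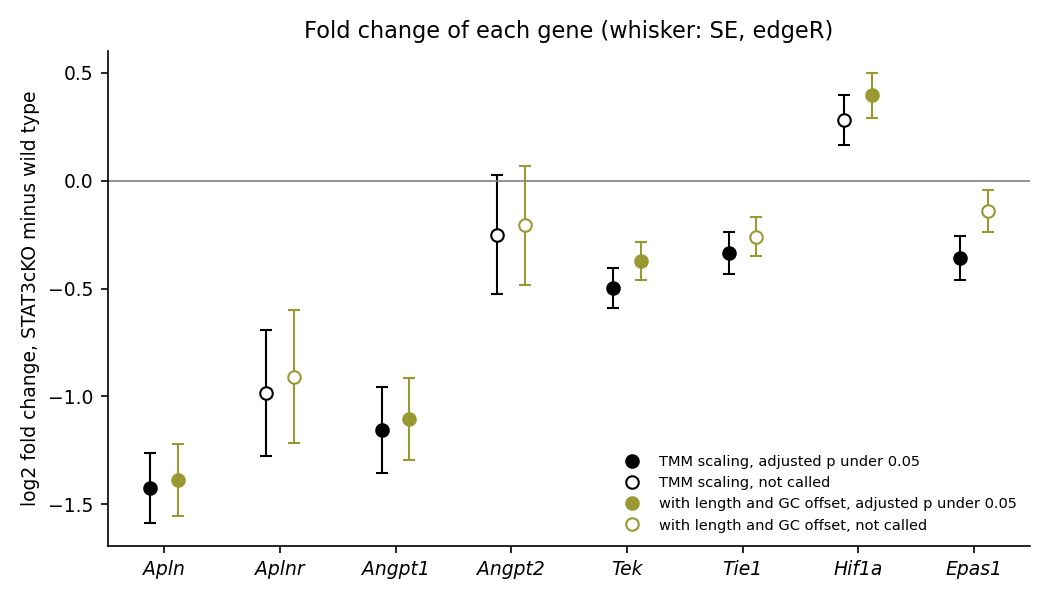
Log2 fold change (STAT3cKO minus wild type, vertical axis) of the 8 genes with its SE, from edgeR with TMM scaling (black) and with the length and GC offset (olive); filled points have an adjusted p under 0.05. Apln, Angpt1 and Tek are filled in both fits, and Hif1a is filled only in the length-adjusted fit.

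Apln, the ligand (GRCm38 chromosome X, 48025146 to 48034853, minus strand), was at 18.6, 17.1 and 22.1 CPM in wild type 1, 3 and 4. In STAT3cKO 3, 6 and 91 it was at 8.67, 7.08 and 5.86 CPM. Each STAT3cKO heart therefore lay below every wild-type heart, by a wide gap. Its log2 fold change was -1.43 ± 0.16 (SE; edgeR adjusted p = 0.000176), or 2.69-fold lower, and in the length-adjusted fit it was -1.39 (adjusted p = 0.000254). The raw counts behind these values were 286 to 403 per wild-type heart and 107 to 127 per STAT3cKO heart. In whole hearts, fewer cells of a type and less RNA per cell cannot be told apart, and this holds for each gene below.

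Aplnr, the receptor (chromosome 2, 85136225 to 85139923), was at 84.1, 61.1 and 88.1 CPM in wild type 1, 3 and 4 and at 50.5, 24.7 and 42.8 CPM in STAT3cKO 3, 6 and 91. The groups did not overlap, but the hearts of each group were far apart, and STAT3cKO 6 was the lowest. For Aplnr the log2 fold change was -0.98 ± 0.29 (SE), with a 95% interval from -1.71 to -0.26, and did not pass (edgeR adjusted p = 0.0604; 0.112 in the length-adjusted fit). It passed with DESeq2 (adjusted p = 0.0202), limma-voom (0.0083), edgeR without robust estimation (0.0104) and a stricter low-count filter (0.0487), and without STAT3cKO 3 (0.0399) or STAT3cKO 6 (0.0091).

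Of 18 other genes of apelin signalling, 16 could be tested, 2 fell, 0 rose and 14 were not called. That is 12.5% lower, near the 12.6% of all genes, and their median log2 fold change was -0.21 (unadjusted p under 0.05 in edgeR: 4 lower and 1 higher; DESeq2 and limma-voom each called 2 lower and 0 higher). Mme, neprilysin, a peptidase that cuts apelin, was at 16.0, 13.7 and 16.4 CPM in wild type 1, 3 and 4 and at 9.42, 9.02 and 4.60 CPM in STAT3cKO 3, 6 and 91 (log2 fold change -1.01 ± 0.23, edgeR adjusted p = 0.0106). Furin, a proprotein convertase, was at 78.5, 79.8 and 73.8 CPM against 62.0, 57.9 and 56.1 CPM (-0.40 ± 0.09, adjusted p = 0.00552). The groups were apart for both genes. Neither passed in the length-adjusted fit (adjusted p = 0.0549 and 0.109). There 2 genes of the list rose and 1 fell, or 12.5% and 6.25%, near the 10.8% and 7.75% of all genes. Apela, the other ligand of Aplnr, had 0 counts in every heart, which allows up to 0.154 to 0.205 CPM (3 counts in a library, for counting error only).

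The promoter table from RefSeq (GRCm38.p6) held 4 of the 8 genes, and the stretches before the start sites of Apln and Hif1a are shown because these genes had the largest decrease and the only positive fold change. Each is 250 bases long, ends 1 base before the start site, and is written 5′ to 3′ along the gene. Capitals mark matches, on either strand, to a hypoxia response element core (ACGTG or GCGTG), an ETS core (AGGAAG) or the STAT palindrome TTCNNNGAA. The Apln stretch lies upstream of the gene at chrX:48034854-48035103, minus strand. The Hif1a stretch lies at chr12:73907617-73907866, plus strand, inside the annotated Hif1a gene. That gene starts earlier, at 73901375 in GENCODE and 73901324 in RefSeq.
Apln: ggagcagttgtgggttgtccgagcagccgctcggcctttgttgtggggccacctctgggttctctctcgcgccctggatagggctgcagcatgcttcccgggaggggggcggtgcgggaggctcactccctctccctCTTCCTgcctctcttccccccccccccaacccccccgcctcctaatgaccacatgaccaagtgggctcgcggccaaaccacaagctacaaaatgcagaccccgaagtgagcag
Hif1a: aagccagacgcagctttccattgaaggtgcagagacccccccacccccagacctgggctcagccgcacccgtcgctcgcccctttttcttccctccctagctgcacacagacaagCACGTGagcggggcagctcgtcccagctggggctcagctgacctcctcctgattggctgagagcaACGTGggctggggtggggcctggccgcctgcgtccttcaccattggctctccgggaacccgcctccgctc

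Apln held 1 ETS core, on the minus strand of the gene at -113 to -108, and no match to the hypoxia or STAT letters in this window. Hif1a held 3 matches to the hypoxia core, 2 of which overlap on opposite strands at -135 to -130, with the third at -70 to -66. Tie1 held 1 ETS core and Tek no match to any of the letters. In all, 38.6% of 32817 RefSeq promoter windows of this length held a hypoxia core, 29.5% an ETS core and 7.01% the STAT palindrome. A match describes letters, not a bound site.

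Angpt1, the ligand that activates Tek (chromosome 15, 42424723 to 42676977, minus strand), was at 59.5, 62.0 and 51.3 CPM in wild type 1, 3 and 4. It was at 17.2, 29.5 and 30.7 CPM in STAT3cKO 3, 6 and 91. The groups were apart, and STAT3cKO 3 was well below its group. On the log2 scale Angpt1 differed by -1.16 ± 0.20 (SE; edgeR adjusted p = 0.00457), or 2.23-fold lower, and -1.10 in the length-adjusted fit (adjusted p = 0.00646). Without STAT3cKO 3 it was -0.94 (adjusted p = 0.00111). Exons of Angpt1 share 737 bases with the antisense model Gm17473, which is not among the symbols of the count table. An unknown part of the Angpt1 reads is thus uncertain without a stated strand setting.

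Angpt2, the context-dependent antagonist (chromosome 8, 18690263 to 18741562, minus strand), was the least abundant of the 8. It held 38 to 96 counts per heart. It was at 4.94, 5.67 and 4.39 CPM in wild type 1, 3 and 4 and at 5.94, 2.47 and 4.22 CPM in STAT3cKO 3, 6 and 91. The groups overlapped, with the highest and the lowest heart both among STAT3cKO. For Angpt2 the log2 fold change was -0.25 ± 0.28 (SE; edgeR adjusted p = 0.535), with a 95% interval from -0.85 to 0.35, and 0.016 without STAT3cKO 6 (adjusted p = 0.968). Angpt2 lies inside Mcph1 on the opposite strand and shares no exon base with it.

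Tek, also called Tie2, the receptor of both angiopoietins (chromosome 4, 94739289 to 94874976), was at 109, 97.1 and 94.3 CPM in wild type 1, 3 and 4. It was at 66.3, 75.8 and 70.4 CPM in STAT3cKO 3, 6 and 91, below every wild-type heart and with little spread. The log2 fold change was -0.50 ± 0.09 (SE; edgeR adjusted p = 0.00245), and -0.37 in the length-adjusted fit (adjusted p = 0.0122).

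Tie1, the partner receptor (chromosome 4, 118471191 to 118490061, minus strand), was at 169, 138 and 142 CPM in wild type 1, 3 and 4 and at 125, 113 and 117 CPM in STAT3cKO 3, 6 and 91. The groups were apart by a small gap, and wild type 1 stood above the other hearts. The log2 fold change was -0.34 ± 0.10 (SE; edgeR adjusted p = 0.0255). The call was lost without wild type 1 (-0.24, adjusted p = 0.1), STAT3cKO 6 (-0.31, 0.054) or STAT3cKO 91 (-0.32, 0.0587), and in the length-adjusted fit (-0.26, 0.0651).

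Of 20 other genes of angiopoietin and Tie signalling, 18 could be tested, 5 fell, 1 rose and 12 were not called, or 27.8% lower against 12.6% of all genes, with a median log2 fold change of -0.23. Ptprb, the endothelial phosphatase VE-PTP that dephosphorylates Tek, was at 288, 262 and 272 CPM in wild type 1, 3 and 4 and at 127, 149 and 119 CPM in STAT3cKO 3, 6 and 91. It was thus lower in each STAT3cKO heart (log2 fold change -1.06 ± 0.10, edgeR adjusted p = 6.03e-05; -0.64 and 0.000677 in the length-adjusted fit). Grb14, an adaptor that binds receptor tyrosine kinases, fell by 0.44 on the log2 scale (adjusted p = 0.00626; 0.00621 in that fit). The phosphoinositide 3-kinase subunits Pik3r1 (log2 fold change -0.56) and Pik3cb (-0.52) also fell (edgeR adjusted p = 0.00726 and 0.0109), and neither passed in that fit (0.0812 and 0.158). In it 2 genes of the list fell and 2 rose, or 11.1% each, against 7.75% and 10.8% of all genes, and without wild type 4, 3 fell and 0 rose. The kinases Akt1 and Akt2, chosen here after their values were seen, had log2 fold changes of -0.20 and 0.00063 and did not pass (adjusted p = 0.0975 and 0.996).

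Hif1a (chromosome 12, 73901375 to 73947530), an oxygen-regulated subunit found in most cell types, was at 90.1, 90.9 and 103 CPM in wild type 1, 3 and 4. In STAT3cKO 3, 6 and 91 it was at 94.4, 128 and 123 CPM. STAT3cKO 6 and 91 were above every wild-type heart and STAT3cKO 3 lay among them. The log2 fold change was 0.28 ± 0.12 (SE), with a 95% interval from 0.03 to 0.53, and did not pass (edgeR adjusted p = 0.0899). It passed in the length-adjusted fit (0.40 ± 0.10, adjusted p = 0.0189) and without STAT3cKO 3 (0.41, adjusted p = 0.0223). Its exons share 330 bases with the antisense model Gm15283, which held 4 to 17 counts per heart. They share 148 with Gm49321, which is not among the symbols of the count table.

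Epas1 encodes HIF-2 alpha, the subunit most prominent in endothelium (chromosome 17, 86753700 to 86833410). It was at 324, 291 and 299.5 CPM in wild type 1, 3 and 4 and at 244, 260 and 209 CPM in STAT3cKO 3, 6 and 91. No STAT3cKO heart reached the wild-type range. The log2 fold change was -0.36 ± 0.10 (SE; edgeR adjusted p = 0.0219). Epas1 has the longest transcript of the 8, at 5516 nt, and in the length-adjusted fit the log2 fold change was -0.14 (adjusted p = 0.347). The call was also lost without wild type 1 (adjusted p = 0.0726), wild type 4 (0.051), STAT3cKO 3 (0.0571) or STAT3cKO 91 (0.073).

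Compared per kilobase of the longest transcript, the order of levels in wild type was Epas1, at 55.2 ± 3.10 CPM per kb (SD, n = 3), then Tie1 (35.3 ± 4.04), Tek (21.5 ± 1.62), Aplnr (21.02 ± 3.94), Hif1a (20.04 ± 1.52), Angpt1 (13.5 ± 1.31), Apln (6.12 ± 0.820) and Angpt2 (1.40 ± 0.180). Tek, Aplnr and Hif1a did not differ from each other beyond their spread. In STAT3cKO hearts Epas1 (43.1 ± 4.64 CPM per kb) and Tie1 (28.0 ± 1.40) still led, and Hif1a (24.4 ± 3.83) followed with a spread that reached Tie1. Next came Tek (15.2 ± 1.02), Aplnr (10.6 ± 3.59), Angpt1 (6.06 ± 1.75), Apln (2.29 ± 0.447) and Angpt2 (1.18 ± 0.487). The receptors thus stayed more abundant per length than their ligands in both groups.

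Ratios of counts within a heart do not depend on library scaling, and 4 were computed. The exact permutation test, two-sided, cannot go below p = 0.1 with 3 against 3. Epas1 to Hif1a was 3.59, 3.20 and 2.91 in wild type 1, 3 and 4 and 2.58, 2.03 and 1.70 in STAT3cKO 3, 6 and 91, with no overlap. Its log2 difference, STAT3cKO minus wild type, was -0.64 (exact permutation p = 0.1; adjusted over the 4 ratios, 0.4), and -0.53 in the length-adjusted fit.

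Angpt2 to Angpt1 was 0.0835, 0.0918 and 0.0860 in wild type 1, 3 and 4, a narrow range. It was 0.347, 0.0845 and 0.138 in STAT3cKO 3, 6 and 91, so STAT3cKO 3 and 91 were above the wild-type range and STAT3cKO 6 within it. The log2 difference was 0.87 (exact permutation p = 0.3, adjusted p = 0.4) and 0.31 without STAT3cKO 3. Tie1 to Tek ranged from 1.42 to 1.56 in wild type and from 1.497 to 1.88 in STAT3cKO (log2 difference 0.17, exact permutation p = 0.3, adjusted p = 0.4). Apln to Aplnr ranged from 0.222 to 0.280 and from 0.137 to 0.288 (log2 difference -0.40, exact permutation p = 0.4, adjusted p = 0.4). These last 3 ratios overlapped between the groups.

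**Figure D3:**
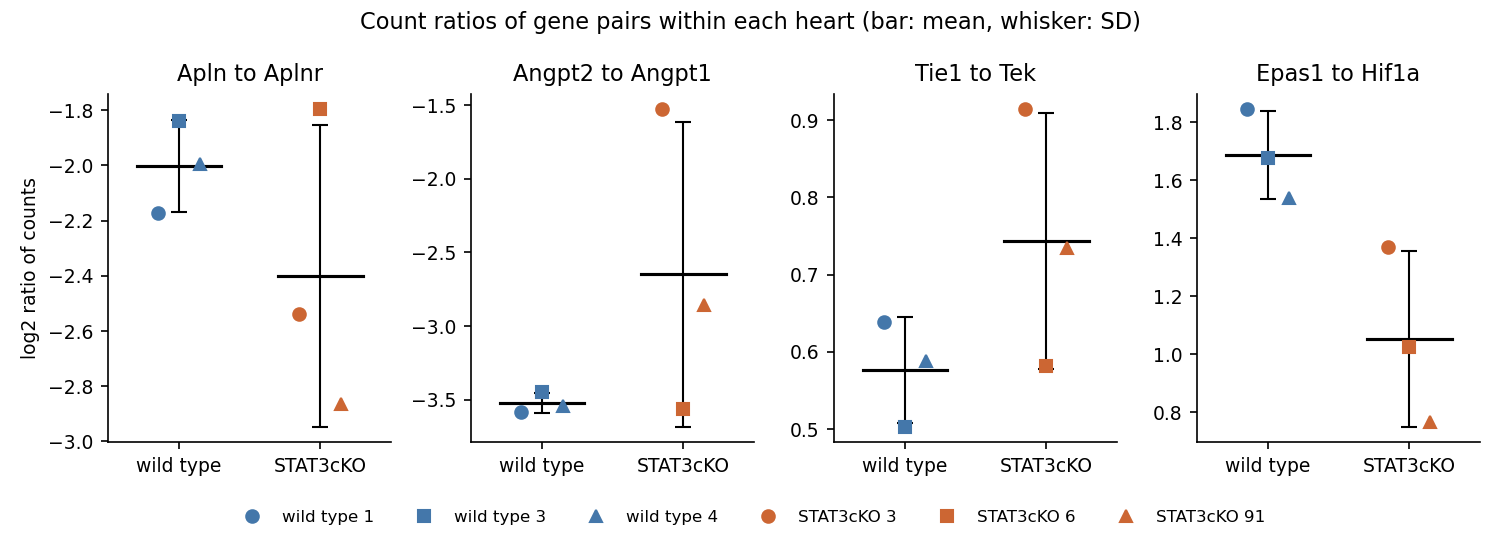
Log2 ratio of the counts of each gene pair in each heart (vertical axes differ and do not start at 0), with the mean (bar) and SD (whisker) of the 3 hearts of a group. Only Epas1 to Hif1a is apart between the groups, and Angpt2 to Angpt1 is spread most widely in STAT3cKO.

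Of 15 genes of oxygen sensing, which hydroxylate, degrade or partner the HIF alpha subunits, 14 could be tested, 3 fell, 3 rose and 8 were not called, with a median log2 fold change of -0.12. The 21.4% in each direction compare with 12.6% lower and 13.2% higher over all genes. Ep300, a coactivator of HIF, fell by 0.59 on the log2 scale (edgeR adjusted p = 0.0016). Hif1an, the asparaginyl hydroxylase that blocks that coactivator, was at 82.0, 88.3 and 91.8 CPM in wild type 1, 3 and 4 and at 65.8, 67.8 and 60.2 CPM in STAT3cKO 3, 6 and 91 (log2 fold change -0.44 ± 0.09, adjusted p = 0.0041). Rbx1 and Eloc, both part of the ubiquitin ligase that marks HIF alpha for destruction, rose by 0.49 and 0.35 (adjusted p = 0.00338 and 0.00936). In the length-adjusted fit 0 genes of the list fell (1 at unadjusted p under 0.05 in edgeR) and 2 rose, or 14.3%, against 7.75% lower and 10.8% higher over all genes. Ep300, Hif1an and Eloc then did not pass (adjusted p = 0.17, 0.168 and 0.111), and Rbx1 did (0.00609). Eloc was also lost with library size alone (0.0782) and without wild type 3 (0.0504), where 1 gene of the list rose.

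Of 26 genes commonly read as HIF targets, 24 could be tested, 4 rose, 1 fell and 19 were not called, with a median log2 fold change of 0.06. The 16.7% higher compares with 13.2% of all genes. Vegfa, the main endothelial growth factor, was at 241, 271 and 281 CPM in wild type 1, 3 and 4 and at 505, 424 and 448 CPM in STAT3cKO 3, 6 and 91, each far above the wild-type range (log2 fold change 0.80 ± 0.10, edgeR adjusted p = 0.000379; 0.000254 in the length-adjusted fit). Bnip3, a mitophagy receptor, rose by 0.55 (adjusted p = 0.00376; 0.0192 in that fit). Eno1, a glycolytic enzyme, rose by 0.42 (adjusted p = 0.0201), but not in that fit (0.135), with library size alone (0.0764), or without wild type 1, wild type 3 or STAT3cKO 91 (0.0796, 0.0837 and 0.0508). The glycolytic enzymes Pgk1 and Ldha and the glucose transporter Slc2a1 were chosen after their values were seen. They had log2 fold changes of 0.08, 0.20 and -0.24 and did not pass. CPM values of the groups were apart for Ldha and Slc2a1, in opposite directions, as they were for 43.0% of all genes tested. In the whole list, 6 genes were higher and 2 lower at unadjusted p under 0.05 in edgeR. Epo, the classical HIF-2 target of the kidney, had 0 counts in every heart.

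**Figure D4:**
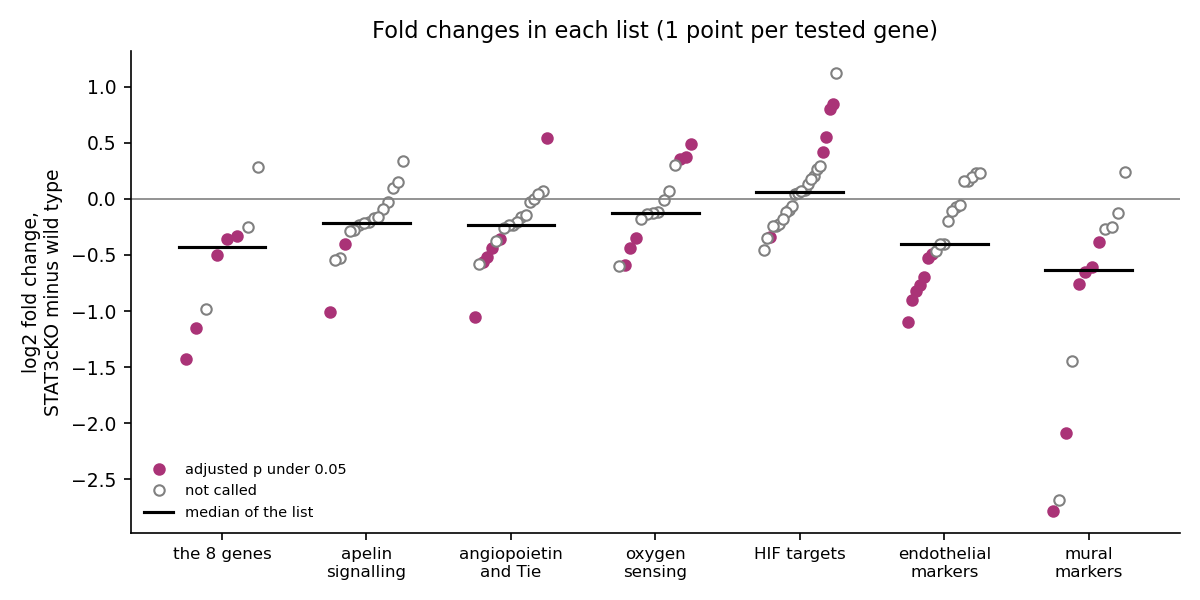
Log2 fold change (STAT3cKO minus wild type, vertical axis) of every tested gene of the 8 genes, 4 pathway lists and 2 marker lists; filled points have an adjusted p under 0.05 and bars are medians. The endothelial and mural markers have medians below 0, and the HIF targets have a median of 0.06.

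Most of the 8 genes are known from vascular cells, and markers of those cells also differed. Of 19 endothelial markers tested, 7 fell, or 36.8% against 12.6% of all genes, and 0 rose (median log2 fold change -0.41; unadjusted p under 0.05 in edgeR: 9 lower and 1 higher; 0 higher with DESeq2 or limma-voom, and 2 higher without wild type 1). Cdh5, the junctional cadherin, was at 306, 246 and 269 CPM in wild type 1, 3 and 4 and at 138, 129 and 117 CPM in STAT3cKO 3, 6 and 91, which is a fall by 1.09 on the log2 scale (edgeR adjusted p = 6.03e-05). Flt1, Kdr and Pecam1, receptors and an adhesion molecule of endothelium, fell by 0.82, 0.77 and 0.70 on the log2 scale (adjusted p = 0.000644, 0.000686 and 0.000747). No marker of the list was at 0 in any heart. The 20 listed markers summed to 4018 to 4594 CPM in wild type and 3705 to 4288 CPM in STAT3cKO, overlapping ranges (log2 difference -0.07, exact permutation p = 0.6, also after adjustment over the 7 marker sums). The fatty acid handling genes Cd36 and Fabp4 made up 44.0% and 17.2% of that sum. Both leaned upward in STAT3cKO (log2 fold changes 0.16 and 0.23), though neither was called. Leaving them out, a choice made after the values were seen, therefore shifts the sum towards a decrease. The other 18 genes summed to 1777 to 2036 CPM in wild type and 1266 to 1416 CPM in STAT3cKO. These ranges did not overlap (log2 difference -0.46, exact permutation p = 0.1). Some of the 18 genes also had fold changes above 0, none of them called.

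Relative to those 18 endothelial markers in the same heart, a set chosen after the values were seen, Apln lay lower in STAT3cKO. It amounted to 0.915, 0.949 and 1.24% of the marker sum in wild type 1, 3 and 4 and to 0.612, 0.512 and 0.463% in STAT3cKO 3, 6 and 91. Angpt1, known from mural and other non-endothelial cells, amounted to 2.92, 3.45 and 2.89% and to 1.21, 2.14 and 2.42%, again without overlap. Which cells held the Angpt1 RNA was not tested. Tek amounted to 5.33, 5.40 and 5.31% in wild type and 4.68, 5.48 and 5.56% in STAT3cKO, which overlapped. Tie1 (7.66 to 8.30% and 8.21 to 9.25%), Epas1 (15.9 to 16.9% and 16.5 to 18.8%), Aplnr (3.40 to 4.96% and 1.79 to 3.57%) and Angpt2 (0.243 to 0.315% and 0.179 to 0.419%) overlapped too. Hif1a was above the wild-type range in each STAT3cKO heart (4.43 to 5.79% and 6.66 to 9.73%). These ratios are descriptions without a test.

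Against the planned sum of all 20 markers, overlap differed. Hif1a then overlapped between the groups, at 1.96 to 2.48% in wild type and 2.26 to 3.33% in STAT3cKO. Aplnr (1.52 to 2.13% and 0.575 to 1.21%), Tek (2.27 to 2.42% and 1.59 to 1.90%), Tie1 (3.42 to 3.68% and 2.64 to 3.16%) and Epas1 (7.05 to 7.24% and 5.65 to 6.05%) were then lower in each STAT3cKO heart. Apln (0.406 to 0.533% and 0.158 to 0.208%) and Angpt1 (1.24 to 1.54% and 0.412 to 0.828%) were apart with either sum, and Angpt2 overlapped with either.

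In that 20-marker sum the log2 differences were -1.36 for Apln, -1.13 for Angpt1, -0.43 for Tek, -0.26 for Tie1 and -0.29 for Epas1, and with 18 markers they were -0.97, -0.74, -0.033, 0.13 and 0.10. The choice of markers thus decides whether Tek, Tie1 and Epas1 stand below the endothelial markers of the same heart. Apln and Angpt1 did so either way, and also against the mean log2 CPM of the 20 markers (-1.05 and -0.87). The part of the endothelial level in the decrease of any of these genes was not tested.

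**Figure D5:**
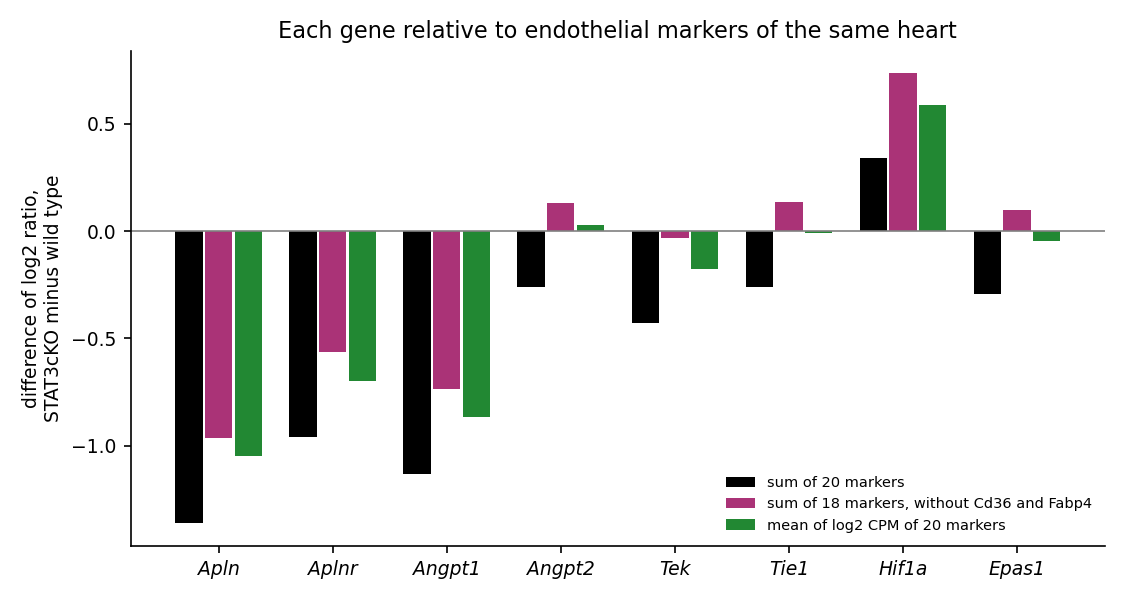
Difference between the groups (STAT3cKO minus wild type) in the log2 ratio of each gene to the endothelial markers of the same heart, with the markers summarised in 3 ways. Apln, Aplnr and Angpt1 are below 0 and Hif1a above 0 in all 3, and Tie1, Epas1 and Angpt2 change sign.

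Mural cells are a known source of Angpt1, and 6 of 12 mural markers fell, against 12.6% of all genes, and 0 rose (median log2 fold change -0.63; unadjusted p under 0.05 in edgeR: 10 lower and 0 higher; 0 higher with DESeq2 or limma-voom). None was at 0 in any heart. They summed to 1685 to 1783 CPM in wild type and 958 to 1258 CPM in STAT3cKO (log2 difference -0.63, exact permutation p = 0.1, adjusted p = 0.175). Acta2 and Myh11, contractile genes of smooth muscle, Notch3 and the pericyte proteoglycan Cspg4 led the decreases (log2 fold changes -2.09, -2.78, -0.76 and -0.61; edgeR adjusted p = 2.36e-06, 0.00941, 0.000782 and 0.00171). In the length-adjusted fit 3 of 12 fell, or 25%, against 7.75% of all genes, and Cspg4 did not pass (adjusted p = 0.0532). Myh11 did not pass without STAT3cKO 91 (0.0556). How far the lower mural markers bear on Angpt1 was not tested.

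Counts in the other marker lists stand beside 13.2% higher and 12.6% lower over all genes tested. In the length-adjusted fit those shares were 10.8% and 7.75%. Among these lists, cardiomyocyte sums were 63560 to 70226 CPM in wild type and 78698 to 88445 CPM in STAT3cKO. Of the cardiomyocyte markers, 5 of 11 were higher (45.5%) and 1 lower (9.09%), and none was at 0. The higher ones included Myl2, Tnnc1, Mb and Tnni3 (log2 fold changes 0.80, 0.83, 0.69 and 0.62), of which Tnni3 did not pass in the length-adjusted fit (adjusted p = 0.0992). Lymphatic endothelial markers, 2 of 7 at 0 in at least 1 heart, summed to 148 to 178 CPM and 124 to 147 CPM. They fell in 2 of 5 tested cases, Flt4 (-0.51) and Lyve1 (-0.67), and Flt4 did not pass in that fit (0.0874). Lyve1 did not pass without wild type 1 or 3 or STAT3cKO 3 or 91 (0.0842, 0.0742, 0.0769 and 0.0817). Macrophage markers summed to 540 to 693 CPM and 418 to 603 CPM, and 5 of 10 fell and 0 rose (0 higher at unadjusted p under 0.05 in edgeR, with DESeq2 or with limma-voom), led by Cd163, Csf1r, Cx3cr1 and Mrc1 (-1.68, -1.09, -1.25 and -0.86). Fibroblast markers summed to 1488 to 2217 CPM and 1904 to 2688 CPM. They fell in 3 cases of 10 (30%), Col1a2 (-0.72), Ddr2 (-0.42) and Col1a1 (-0.51), and rose in 1 (10%), Dcn (0.79). Ddr2 and Col1a1 did not pass in the length-adjusted fit (0.552 and 0.211). Col1a1 was also lost without wild type 3, STAT3cKO 3 or STAT3cKO 6 (0.104, 0.138 and 0.154). Red blood cell genes summed to 90.7 to 159 CPM and 334 to 685 CPM and rose in 4 of 5 cases (Hba-a2, Hbb-bs, Hbb-bt and Hba-a1, log2 fold changes 2.26, 1.90, 1.81 and 1.61), but 0 did in the length-adjusted fit (5 at unadjusted p under 0.05 in edgeR; DESeq2 and limma-voom, without that adjustment, called 5) or without wild type 1, 3 or 4. Their near-identical copies make these counts uncertain.

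The genes whose log2 CPM followed each called gene most closely over the 6 hearts were listed as a description, since the hearts fall into 2 groups and share their libraries. For Apln they were Dlat, Parp1 and Plxna1 (Pearson r = 0.996, 0.995 and 0.995). For Angpt1 they were Gosr2, Bmper and Atl3 (0.999, 0.997 and 0.995), and for Tek C1qtnf1, Slc24a3 and Angel1 (0.997, 0.997 and 0.994). Tie1 was followed by Hps6, Mid1ip1 and Tspan13 (0.994, 0.993 and 0.992), and Epas1 by Plekhm3, Ncoa1 and E2f3 (0.997, 0.996 and 0.996). No gene was among the closest 3 of more than 1 of the 5 genes.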

How the data were processed

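The authors deposited 1 table of raw counts of reads per gene symbol for 6 heart libraries, with no normalisation. HISAT2 and GRCm38 are named in the submitters' processing notes. The counting program, annotation, strand setting and handling of multi-mapping reads were not stated in those sources. The 8 genes and the gene lists were chosen with earlier results of these data known. Genes were filtered with filterByExpr (minimum count 10), scaled by TMM and tested with edgeR 4.0.16 (robust quasi-likelihood, genotype only, R 4.3.3). SE is the fold change divided by the root of F. CPM values use effective library sizes. By rule, the text names the 8 genes, Stat3, up to 4 genes per list with the smallest adjusted p, and the 3 closest genes by correlation. Akt1, Akt2, Pgk1, Ldha, Slc2a1, Cd36, Fabp4, Apela and Epo are named outside that rule, after their values were seen. A gene that this rule takes is not reported here by name and remains in the counts. Coordinates and longest transcripts are from GENCODE M21 (GRCm38), matched for 75.0% of symbols. The list symbols Grk2, Elob and Eloc were matched through RefSeq synonyms. The length-adjusted fit takes as offset a spline trend (5 degrees of freedom) of each heart's log2 CPM deviations on transcript length and GC content. Overlaps with other annotated genes were listed for the 8 genes and Stat3 only, so counts of other named genes may include reads of a neighbour. Ratios used a pseudocount of 0.5. Alternatives were other scalings, filters and tests (DESeq2 1.42.0; limma-voom, limma 3.58.1), removal of mitochondrial and haemoglobin genes, and leaving out each heart. The edgeR script was tested on simulated data.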

Additional observations from a re-analysis of the deposited data

How the results depend on the processing

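Across 10 other settings and the 6 fits that each left out 1 heart, Apln, Angpt1, Tek and Stat3 kept their direction and their side of the threshold in all 16. Log2 fold changes ran from -1.58 to -1.29 for Apln, from -1.29 to -0.94 for Angpt1 and from -0.61 to -0.37 for Tek. Where a value below changed, the cause was not tested. No paired analysis was possible because the groups share only the number 3 in their labels. Depth was lowest for Angpt2, with 38 to 96 counts per heart.

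Aplnr passed at log2 fold changes of -0.98 (stricter filter, and edgeR without robust estimation), -0.99 (DESeq2) and -1.03 (limma-voom), and ran from -1.20 to -0.74 with 1 heart left out. In the length-adjusted fit Tie1 (-0.26) and Epas1 (-0.14) no longer passed and Hif1a (0.40) did. With 1 heart left out, Tie1 ran from -0.39 to -0.24, Epas1 from -0.43 to -0.27, Hif1a from 0.20 to 0.41 and Angpt2 from -0.57 to 0.016, the last reversed without STAT3cKO 6.

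Over all genes, library size alone gave 1109 higher and the length-adjusted fit 1122 lower, and leaving out 1 heart gave 1237 to 1887 higher and 1198 to 1999 lower. Of the 8 genes, 1 was higher and 3 lower in the length-adjusted fit, and 0 to 1 higher and 3 to 5 lower with 1 heart left out. Of all genes, 10.8% were higher and 7.75% lower in the length-adjusted fit. In the length-adjusted fit the lists held, higher and lower, 2 and 1 for apelin signalling and 2 and 2 for angiopoietin and Tie signalling; 0 oxygen sensing genes, 0 HIF targets, 1 lymphatic, 3 mural, 0 cardiomyocyte and 1 fibroblast marker were lower, and 0 red blood cell genes were higher. Library size alone called 2714 of all 14484 genes lower and 1109 higher. With it, 5 apelin, 9 angiopoietin and 2 HIF target genes were lower, and 0 angiopoietin and 1 oxygen sensing gene were higher. Without a low-count filter, 2032 of 25015 genes were higher and 2351 lower. There 1 apelin gene was higher and 4 lower, 2 HIF targets were lower and 0 red blood cell genes higher. With limma-voom 0 HIF targets were lower, against 1836 of all 14484 genes. Removing haemoglobin genes takes the globin genes out of the red blood cell list by construction. The remaining gene of that list was not called higher in that fit, which left 0 higher. With 1 heart left out, higher genes numbered 0 to 1 for apelin, 0 to 1 for angiopoietin, 1 to 3 for oxygen sensing, 2 to 5 for HIF targets, 0 to 2 for endothelial and 0 to 5 for red blood cell lists, and lower genes 3 to 6 for angiopoietin, 0 to 3 for HIF targets and 1 to 2 for lymphatic lists.

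Relative to the endothelial markers without Cd36 and Fabp4, chosen after seeing the data, log2 differences were -0.97 for Apln, -0.74 for Angpt1, 0.13 for Angpt2, -0.033 for Tek, 0.13 for Tie1, 0.74 for Hif1a and 0.10 for Epas1. With the mean of log2 CPM they were -1.05 for Apln, 0.030 for Angpt2, -0.18 for Tek, -0.010 for Tie1, 0.59 for Hif1a and -0.044 for Epas1. In the length-adjusted fit they were -0.33 for Tek and -0.10 for Epas1. Angpt2 per endothelial marker sum ran from -0.53 to 0.12 with 1 heart left out.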
